A study of Oreochromis niloticus with 12 samples.

Results

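DNA replication and cell division genes were followed in the brains of mature male Nile tilapia (Oreochromis niloticus, Lake Manzala strain), a cichlid fish in which males form dominance hierarchies. The genes were chosen by the symbol in the deposited brain table and not by a measured difference, though with earlier results of these data known. They were the genes averaging 10 or more normalised reads whose symbol begins as those of the MCM helicase subunits, origin recognition proteins, GINS complex, replication factor C, DNA polymerases alpha, delta and epsilon, E2F factors, cyclins A, B, D and E, cyclin-dependent kinases, CDC genes, Polo and Aurora kinases, BUB checkpoint proteins and centromere proteins do, together with pcna, mki67 and top2a. In all 112 symbols matched this pattern, 6 of them for the small GTPase family cdc42 were left out, none lay below the mean of 10, and 106 genes remained. The brain table held 27115 genes, of which 21743 had a mean of at least 10 and entered the test. Because the pattern reads names, 25 of the 106 genes were set apart as named alike with mainly other roles, and these are described on their own. This split was a judgement made, like the other lists, with earlier results of these data known. Some of the 25 may also act in the cell cycle or in replication.

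The study set the brains of males that were dominant and reproducing beside those of males that were subordinate and not reproducing, with 3 libraries of each status sampled on day 14. A pair of males shared each tank with females, without further treatment in the labels. Whether same-status fish came from separate tanks is not stated, so p-values measure the spread between these 6 samples, which may in part be technical. The brain libraries held 23733115 to 26867631 reads in genes, recovered from the deposited values. Of 14 neuronal markers sought 9 were in the brain table, with summed levels of 91968.8 to 102447 normalised reads in dominant and 91062.7 to 100782 in subordinate brains.

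Before a cell divides, origin recognition proteins load a ring of MCM proteins onto DNA, and CDC45 and GINS turn that ring into a working helicase. Polymerases then copy the strands while held to DNA by the PCNA clamp, which the replication factor C loader opens and closes. E2F factors, cyclins and their kinases time these steps, and centromere proteins, checkpoint proteins and the anaphase-promoting complex govern the separation of chromosomes. The adult brain of teleost fish is known for keeping many zones of dividing progenitor cells, so these transcripts are background to its growth. Roles given here are those known from yeast, mammals and other model animals rather than from tilapia itself. In whole-brain RNA, fewer dividing cells and less RNA per dividing cell cannot be told apart.

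The median difference of the 106 genes between dominant and subordinate brains lay close to that of all genes, and the gene with the smallest p was rfc4, which was higher in dominant brains. The log2 difference was taken as dominant minus subordinate on the log2(normalised reads + 1) scale. Of the 106 genes 56 had a positive difference and 50 a negative one, and 48.8% of all genes tested were positive. Their median difference was 0.0068, beside -0.0043 over all genes tested. Without the 25 genes set apart for other roles, 59.3% of the remaining 81 were positive and their median was 0.09, a contrast that was not tested and that depends on that split. With limma and Benjamini-Hochberg adjustment over all 21743 genes, 0 of the 106 passed an adjusted p of 0.05, where 6 genes, or 0.0276%, did so overall. At an unadjusted p under 0.05 limma counted 2 of the 106, rfc4 and gins4, both higher in dominant brains. Over all genes 5.17% met that threshold, 3.10% as higher and 2.07% as lower in dominant brains. On the recovered reads edgeR also called 0 of the 106 at an adjusted p under 0.05 (0.0276% of all genes), with 2 at an unadjusted p under 0.05. On the same reads DESeq2 called 1, rfc4, where it called 0.405% of all genes. The 3 dominant libraries lay above the 3 subordinate libraries in 4 genes, which were rfc4, gins4, plk1 and pold4. They lay below them in 3 genes, which were mcm4, gins1 and cdc23. Groups that did not overlap made up 10.8% of all genes tested, 5.46% with dominant above and 5.33% with dominant below, so 7 of 106 is not a raised count.

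**Figure D1:**
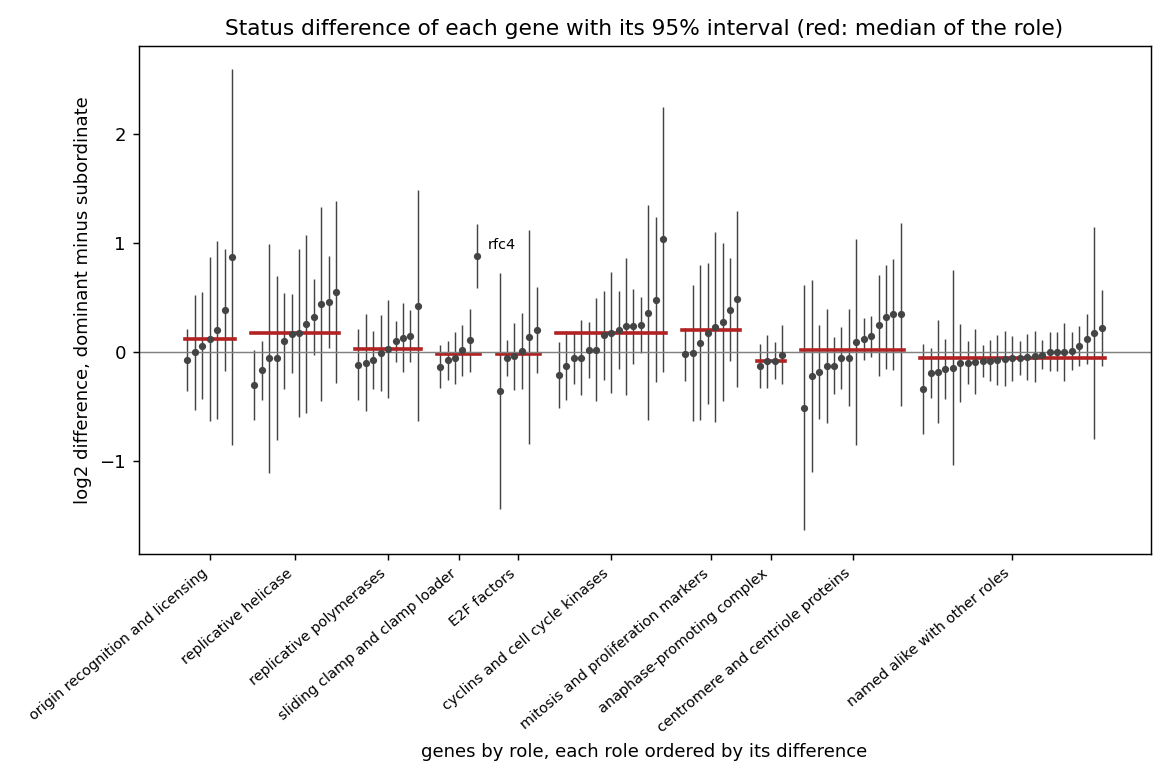
Log2 difference, dominant minus subordinate, of each of the 106 genes (points, with the 95% interval of the limma fit as bars), arranged by role, with the median of each role in red. Most intervals cross 0, and rfc4, at 0.88, has an interval of 0.59 to 1.18.

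Replication factor C is the 5-subunit machine that opens the clamp, and its rfc4 subunit had the smallest p of the 106 genes. Normalised reads of rfc4 were 195, 215 and 204 in dominant brains, against 122, 111 and 99.6 in subordinate brains. All 3 dominant libraries were thus far above all 3 subordinate libraries, with a gap wider than the range within either status. The means were 205 ± 10.3 and 111 ± 11.2 (SD, n = 3 each), and counting error alone would give an SD of 14.4 and 10.4. The log2 difference was 0.88 (95% interval 0.59 to 1.18). Its limma adjusted p over all genes was 0.299, from an unadjusted p of 0.000207, so it did not pass. DESeq2 on the recovered reads gave an adjusted p of 0.000845, and over all the alternatives tried the adjusted p ran from 0.000845 to 0.995. The authors' deposited table gives rfc4 a log2 fold change of 0.88 with an unadjusted p of 1.47e-06, where 3.90% of the genes in that table have a p under 0.05.

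The partners of rfc4 in the clamp loader did not show this difference. The large subunit rfc1 stood at 549.5, 509 and 509.7 normalised reads in dominant brains, against 522, 562 and 566 in subordinate brains. For rfc2 the values were 799, 864 and 744 in dominant brains, against 942, 851 and 842 in subordinate brains. Both differences were small and negative, -0.07 and -0.13, and their groups overlapped. The rfc3 libraries held 187, 174 and 174 in dominant brains, against 177, 193 and 185 in subordinate brains. Those of rfc5 held 254, 296 and 294 in dominant brains, against 277, 288 and 268 in subordinate brains. Differences of rfc3 and rfc5 were -0.05 (95% interval -0.29 to 0.19) and 0.02 (-0.22 to 0.25), and neither interval reaches the lower bound of rfc4. The clamp itself, pcna, had 785, 799.7 and 630.0 normalised reads in dominant brains, against 764, 654 and 631 in subordinate brains. Its dominant replicate 3 and subordinate replicates 2 and 3 were low, and the groups overlapped (difference 0.11, -0.18 to 0.40).

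**Figure D2:**
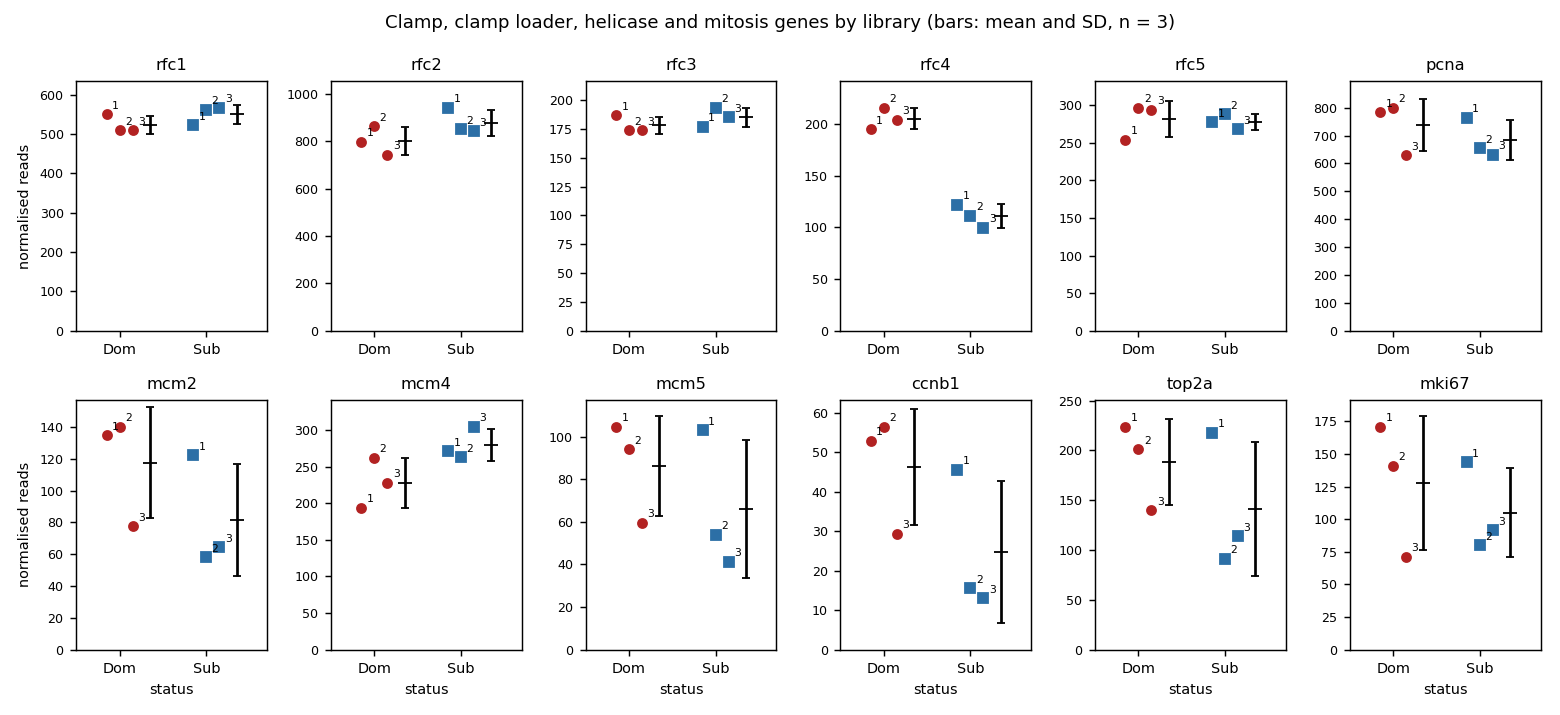
Normalised reads (vertical axes from 0) of the clamp loader subunits and clamp in the upper row and of helicase and mitosis genes in the lower row, with each brain library as a point numbered by replicate (red circles dominant, blue squares subordinate) and bars for mean and SD, n = 3. In rfc4 the 2 groups are separate, with dominant libraries at 195 to 215. In mcm2, mcm5, ccnb1 and top2a subordinate replicate 1 lies above dominant replicate 3 and above subordinate replicates 2 and 3.

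Most of the genes beside rfc4 on the chromosome shared its direction. In the gene order of RefSeq assembly O_niloticus_UMD_NMBU, 6 of the 10 nearest tested genes, 5 on each side, had an unadjusted limma p under 0.05, and all 6 were higher in dominant brains. Of 98 genes of the group that could be placed in that order, 57 had 0 such neighbours, 33 had 1 and 8 had at least 2, and no gene other than rfc4 had more than 2. On one side mcf2l2 (LOC100704513) lay next to rfc4. It had 1055, 1021 and 980 normalised reads in dominant brains, against 608, 717 and 813 in subordinate brains. Its log2 difference was 0.52 (limma unadjusted p = 0.00226, adjusted p = 0.757). Beyond it lay b3gnt5a, an enzyme of glycolipid synthesis (LOC102082918). It had 52.9, 56.4 and 48.1 normalised reads in dominant brains, against 4.55, 0.00 and 2.01 in subordinate brains (limma adjusted p = 0.355). As in rfc4, every dominant library was above every subordinate library. On the other side LOC100703972, which has no name in the table or in RefSeq, held 566, 548 and 535 normalised reads in dominant brains, against 45.5, 53.0 and 41.2 in subordinate brains (log2 difference 3.54, limma adjusted p = 0.000565). Its neighbour LOC100703705, also unnamed, held 299, 295 and 276 in dominant brains, against 40.1, 22.9 and 29.2 in subordinate brains (3.23, adjusted p = 0.0118). Between them and rfc4, the unnamed LOC102082670 and LOC109196791 had differences of 1.72 and 1.82. The unnamed LOC106098153, next to rfc4 itself, was at 0.86 with an interval of -0.20 to 1.91 and an unadjusted limma p of 0.096. The stretch ended at ect2, which is needed for cytokinesis, whose difference was 0.14 (-0.18 to 0.46) with overlapping groups, and nlgn1 beyond it, a gene of synapse adhesion, was at -0.24. Neither build nor strand setting of the files is given here, so how reads of neighbouring or overlapping genes were divided could not be examined.

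**Figure D3:**
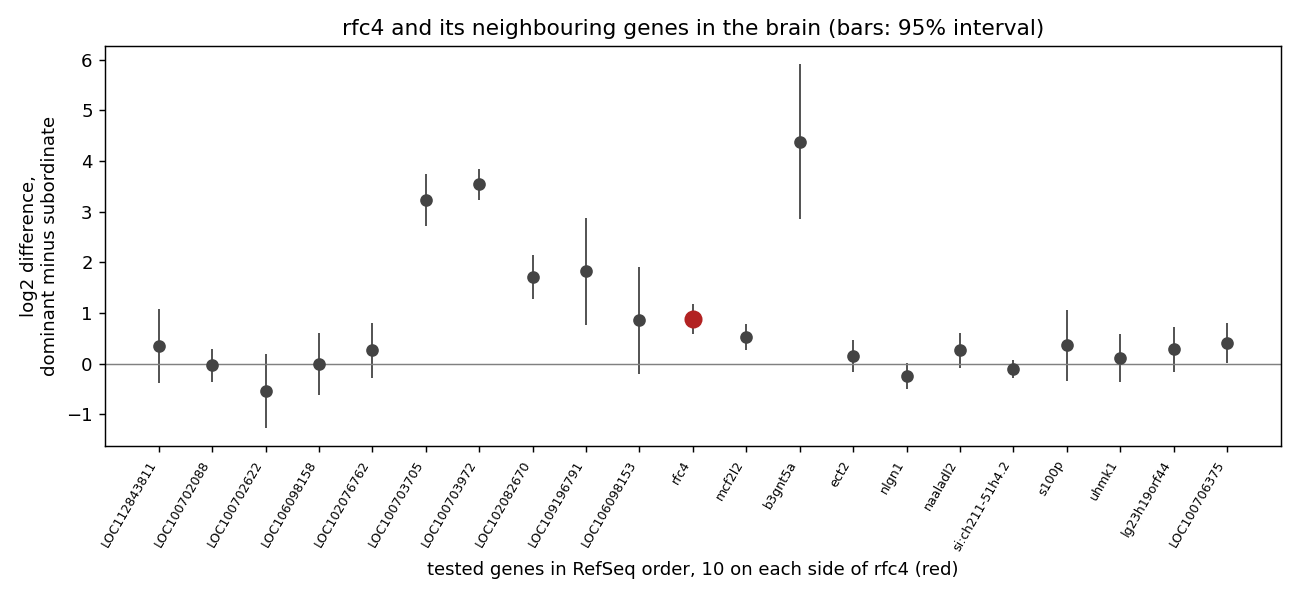
Log2 difference, dominant minus subordinate, of rfc4 (red point) and of the 10 tested genes on each side in RefSeq order, with the 95% interval of the limma fit. A run of adjacent genes that includes rfc4 lies above 0, with LOC100703705, LOC100703972 and b3gnt5a highest at 3.23, 3.54 and 4.38, and the genes on either side of the run lie between -0.54 and 0.41.

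The helicase genes, 12 in number, varied more between single libraries than between statuses. Of these 8 had a positive difference, the median was 0.17, and the median ratio of the highest to the lowest library was 1.80, beside 1.38 over all genes tested. The MCM ring subunit mcm2 had 135, 140.2 and 77.4 normalised reads in dominant brains, against 122, 58.2 and 64.4 in subordinate brains. Its partner mcm5 had 105, 94.1 and 59.7 in dominant brains, against 103, 54.0 and 41.2 in subordinate brains. In both, dominant replicates 1 and 2 and subordinate replicate 1 were high and the remaining libraries low, so the groups overlapped. The log2 differences of 0.55 (95% interval -0.28 to 1.38) and 0.45 (-0.45 to 1.34) were smaller than this spread. The subunit mcm6 stood at 125, 121 and 104 in dominant brains, against 104, 86.2 and 89.5 in subordinate brains, where only dominant replicate 3 and subordinate replicate 1 met (0.32, -0.03 to 0.67). For mcm7 the libraries held 496, 408 and 383 in dominant brains, against 457, 353 and 336 in subordinate brains (0.17). For mcm3 they held 232, 278 and 174 in dominant brains, against 224, 185 and 217 in subordinate brains (0.10).

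The remaining ring subunit, mcm4, went the other way. It had 194, 262 and 228 normalised reads in dominant brains, against 271, 263 and 305 in subordinate brains. The groups did not overlap, though dominant replicate 2 and subordinate replicate 2 were almost equal. The difference was -0.30 (95% interval -0.62 to 0.02, limma adjusted p = 0.934) and did not pass. The GINS subunits, which join the ring to the polymerase, were also mixed. Here gins4 had 85.0, 112 and 105 in dominant brains, against 73.8, 82.1 and 62.4 in subordinate brains, without overlap (0.46, 0.03 to 0.89, limma unadjusted p = 0.0379, adjusted p = 0.934). In contrast gins1 had 185, 186 and 185 in dominant brains, against 197, 236 and 194 in subordinate brains (-0.17), with dominant libraries below by a narrow margin. The other subunits gins2 and gins3 had fewer reads and overlapping groups, with differences of 0.26 and -0.05. The activator cdc45 had 33.2, 19.8 and 16.7 in dominant brains, against 41.0, 18.7 and 16.1 in subordinate brains, so that replicate 1 of each status was high (-0.06, -1.11 to 0.996). For mcm10, which helps start the helicase, the difference was 0.18 with overlapping groups.

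Of the 7 genes that mark and license origins 5 had a positive difference, and none had groups apart. The loader cdc6 was at the edge of detection, with 11.4, 17.9 and 7.33 normalised reads in dominant brains, against 18.2, 3.12 and 3.02 in subordinate brains. The highest library was thus a subordinate one, and the difference of 0.87 had an interval of -0.85 to 2.60. The kinase gene cdc7, which fires origins, had 36.3, 60.2 and 38.7 in dominant brains, against 58.3, 33.2 and 28.2 in subordinate brains (0.20). Of the origin recognition subunits, orc5 had the widest difference, with 104, 114 and 157 in dominant brains, against 79.2, 124 and 83.5 in subordinate brains (0.39, -0.17 to 0.95). The others, orc1 to orc4, ranged from -0.07 to 0.12. By their mean, cdc6 at 10.2, e2f7 at 13.4 and gins2 at 16.3 normalised reads were the 3 genes nearest the threshold of 10, and no gene matching the pattern lay under it.

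The polymerase genes were steadier, with a median ratio of highest to lowest library of 1.33 over 9 genes and a median difference of 0.03. The small subunit pold4 was above in all 3 dominant libraries, at 398, 425 and 397 normalised reads, against 392, 386 and 361 in subordinate brains. Its difference of 0.10 (95% interval -0.09 to 0.29) was within the replicate spread. The catalytic subunits pola1 and pold1 had differences of -0.11 and -0.10. For pole2, an accessory subunit of polymerase epsilon, the libraries held 44.6, 54.6 and 26.2 in dominant brains, against 44.6, 35.3 and 16.1 in subordinate brains (0.43, -0.63 to 1.49). Among the E2F factors, which switch on these genes at the start of S phase, e2f1 had 90.2, 95.02 and 93.1 in dominant brains, against 92.0, 85.2 and 66.4 in subordinate brains (0.20). The repressor e2f7 had 15.6, 10.3 and 8.37 in dominant brains, against 20.9, 8.31 and 17.1 in subordinate brains (-0.36), and e2f8 stood at 0.01. All 6 factors had overlapping groups.

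Among 15 genes grouped as cyclins and cell cycle kinases 11 had a positive difference, with a median of 0.18 and no gene at an unadjusted limma p under 0.05. The 15 include cdc14a, cdc25b, cdk2ap1 and cdk2ap2, which are neither cyclins nor kinases. The mitotic cyclin ccnb1 showed the largest difference of the 106 genes and one of the widest intervals. It had 52.9, 56.4 and 29.3 normalised reads in dominant brains, against 45.5, 15.6 and 13.1 in subordinate brains. Subordinate replicate 1 lay between the dominant libraries, and the difference was 1.04 (95% interval -0.18 to 2.25). The S-phase cyclin ccna2 had 61.2, 60.2 and 35.6 in dominant brains, against 49.2, 27.0 and 35.2 in subordinate brains (0.48, -0.27 to 1.24). The mitotic kinase cdk1 had 87.1, 67.7 and 64.9 in dominant brains, against 84.7, 53.0 and 58.3 in subordinate brains (0.18). In these 3 genes subordinate replicate 1 was the highest of its group. The S-phase kinase cdk2 had 166, 159 and 133 in dominant brains, against 128, 115 and 144 in subordinate brains (0.24). The G1 kinase cdk6 had 456, 428 and 407 in dominant brains, against 413, 327 and 350.1 in subordinate brains (0.25, -0.01 to 0.51). The G1 cyclins did not lean to the dominant side, with ccnd1 at -0.05 and ccne1 at -0.21. For ccne1 the libraries held 142, 135 and 129 in dominant brains, against 174, 140.2 and 156 in subordinate brains.

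The 8 mitosis and proliferation marker genes had the widest spread between subordinate libraries. Of these 6 had a positive difference, with a median of 0.20. Topoisomerase gene top2a, which untangles chromosomes, had 224, 201 and 140.2 normalised reads in dominant brains, against 218, 91.4 and 114 in subordinate brains. The proliferation antigen mki67 had 171, 141 and 71.2 in dominant brains, against 144, 80.0 and 91.5 in subordinate brains. In both, subordinate replicate 1 lay between dominant replicates 1 and 2, and dominant replicate 3 was the lowest of its group. The differences were 0.49 (95% interval -0.32 to 1.30) and 0.23 (-0.64 to 1.11). The mitotic kinase plk1 departed from this order, with 49.8, 59.3 and 56.5 in dominant brains, against 41.0, 48.8 and 36.2 in subordinate brains. Its groups were apart by about 1 normalised read, and the difference was 0.39 (-0.08 to 0.86, limma adjusted p = 0.934). The checkpoint genes bub1, bub1b and bub3 had differences of 0.28, -0.01 and -0.02, and the anaphase activator cdc20 of 0.17. The 4 subunits of the anaphase-promoting complex all had small negative differences, from -0.13 to -0.02. Of these cdc23 had 237, 241 and 228 in dominant brains, against 259, 255 and 259.6 in subordinate brains (-0.13, -0.33 to 0.07).

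Centromere and centriole genes split evenly, 7 positive and 7 negative of 14, with a median of 0.02. The kinetochore protein gene cenpf had 249, 258 and 271 normalised reads in dominant brains, against 223, 262 and 144 in subordinate brains, where subordinate replicate 3 alone was low (0.35, 95% interval -0.16 to 0.86). The kinetochore motor gene cenpe was level, at 113, 105 and 105 in dominant brains, against 113, 109 and 113 in subordinate brains. The centriole gene cenpj had 151, 106 and 97.3 in dominant brains, against 368, 116 and 106 in subordinate brains. Subordinate replicate 1 was far above every other library, and the difference of -0.51 had an interval of -1.64 to 0.62. The centrosome gene cdk5rap2 had 1555, 1410.2 and 1433 in dominant brains, against 1445, 1283 and 1248 in subordinate brains (0.15, -0.04 to 0.34).

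The 25 genes named alike but with other roles had a median ratio of highest to lowest library of 1.23, although in the repair helicase genes mcm8 and mcm9 it was 2.97 and 2.34, and in plk2 it was 1.94. Only 8 of them had a positive difference, and their median was -0.06, whereas the other 81 genes had 48 positive and a median of 0.09. No test of that contrast was made. The group includes the neuronal kinase cdk5 and its activators. The kinase had 1634, 1398 and 1363 normalised reads in dominant brains, against 1405, 1442 and 1654 in subordinate brains (-0.04, 95% interval -0.27 to 0.20). Its activator cdk5r1 had 7266, 7172 and 7879 in dominant brains, against 7928, 7856 and 7836 in subordinate brains (-0.08), and cdk5r2 had 5196, 6967 and 6678 in dominant brains, against 7219, 6738 and 6852 in subordinate brains (-0.15). All overlapped. The activity-responsive kinase plk2 had 1976, 2815 and 2683 in dominant brains, against 2759, 3832 and 2850.1 in subordinate brains (-0.34, -0.75 to 0.08). The kinase cdk14, a partner of cyclin Y, had 5284, 5573 and 6228 in dominant brains, against 6057, 6221 and 7227 in subordinate brains (-0.19, -0.42 to 0.04). The HSP90 partner cdc37 was level at -0.02. Apart from cdk5, the genes given here were the 5 with the most reads of the 106, a measure that rises with transcript length.

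The same libraries were high or low in many of these genes, across status. Counting each gene in the library where it was highest gave 30, 24 and 6 of the 106 in dominant replicates 1, 2 and 3, against 23, 7 and 16 in subordinate replicates 1, 2 and 3. Over all genes tested the shares were 20.0%, 12.7% and 14.0% in the dominant libraries, against 18.3%, 18.3% and 16.7% in the subordinate libraries. Counting genes above their own mean of the 6 libraries on the log2 scale gave 67, 65 and 33 in dominant brains, against 66, 42 and 54 in subordinate brains. Here the background was 50.6%, 51.6% and 50.8% in the dominant libraries, against 51.1%, 51.6% and 51.8% in the subordinate libraries. Dominant replicate 3 thus had the fewest genes on both counts. In the 12 helicase genes 10, 10 and 1 were above their mean in dominant brains, against 10, 2 and 3 in subordinate brains. In the 8 mitosis and proliferation markers the counts were 7, 6 and 2 in dominant brains, against 7, 1 and 2 in subordinate brains. Their median log2 deviations were 0.22, 0.27 and -0.12 in dominant brains, against 0.33, -0.29 and -0.32 in subordinate brains, while over all genes tested no library departed from 0 by more than 0.0069. Not every role had its highest counts in dominant replicates 1 and 2 and subordinate replicate 1, though the cyclin and centromere roles did. The 7 origin genes had 4, 6 and 2 above their mean in dominant brains, against 2, 3 and 4 in subordinate brains. In the 4 anaphase-promoting complex genes the counts were 0, 3 and 0, against 1, 3 and 4. In the 25 genes with other roles they were 9, 10 and 12, against 14, 16 and 19. The order of the libraries is described as found, and no test was made of it.

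**Figure D4:**
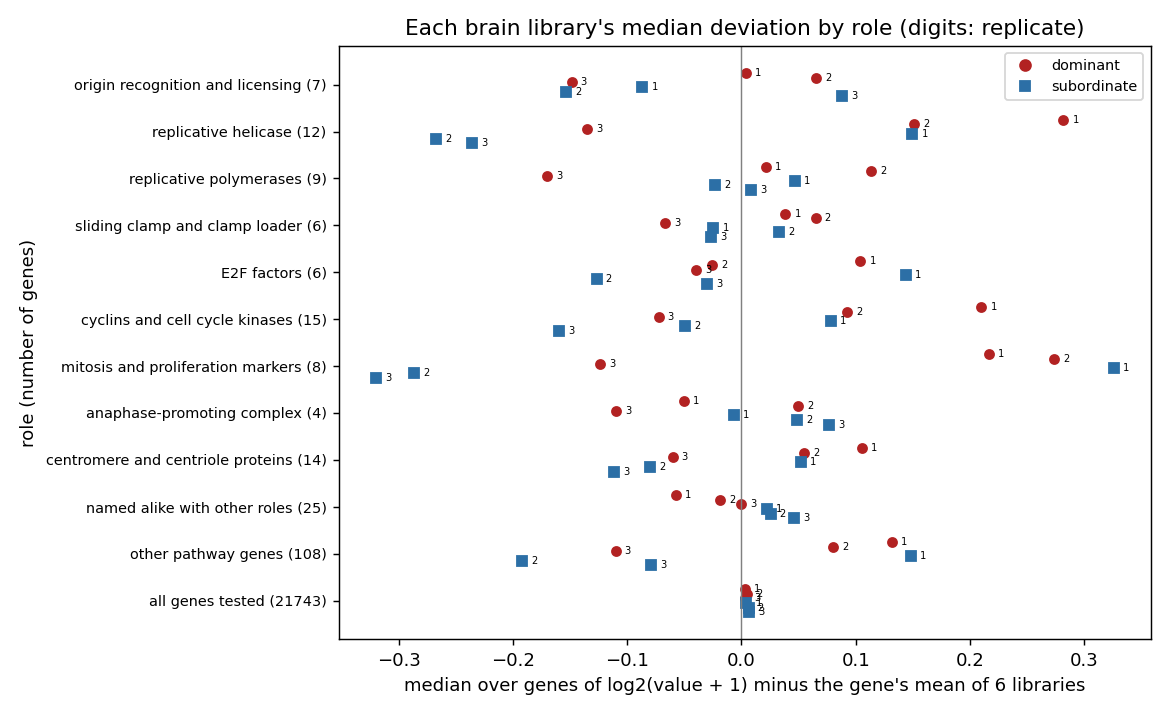
Median over the genes of each role of log2(normalised reads + 1) minus the gene's mean of 6 libraries, for each brain library (red circles dominant, blue squares subordinate, digits for the replicate). In the helicase and mitosis rows dominant replicates 1 and 2 and subordinate replicate 1 lie right of 0 and the other libraries left of it, while all genes tested lie at 0.

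**Figure D5:**
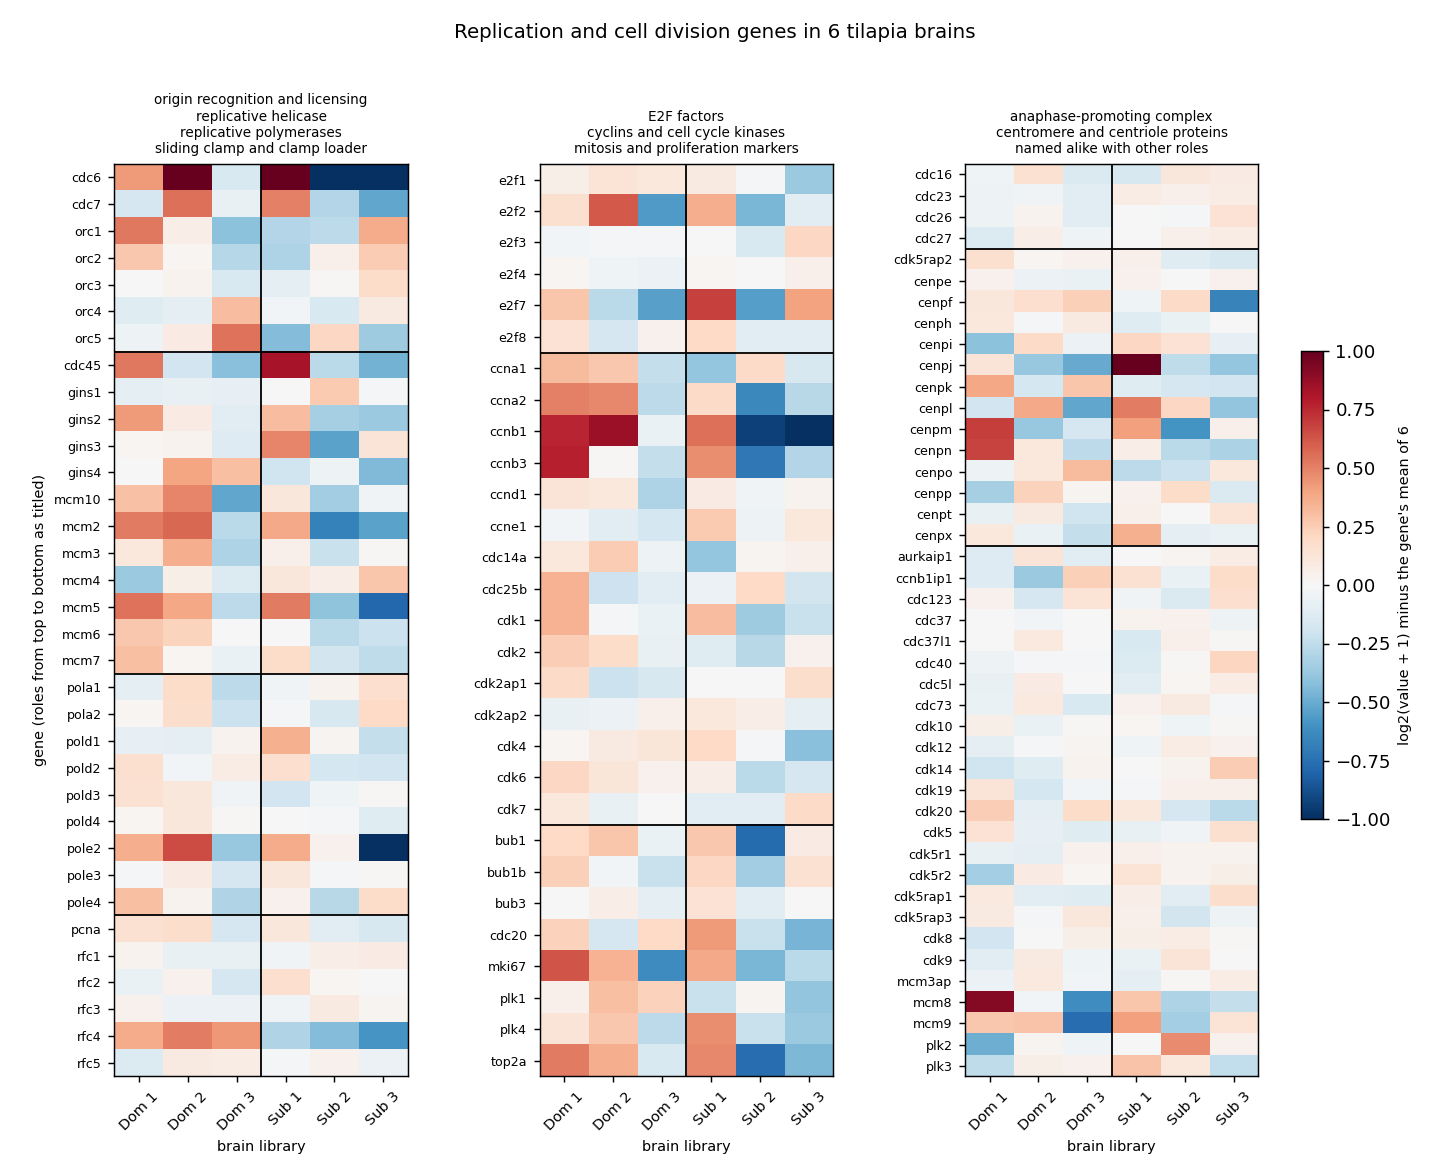
Log2(normalised reads + 1) minus the gene's mean of 6 libraries for each of the 106 genes, by role, with dominant libraries left of the vertical line and subordinate libraries right of it. The colour scale stops at 1 and -1. The row of rfc4 is red in all dominant and blue in all subordinate libraries. The rows of ccnb1, mcm2, mcm5 and top2a are red only in dominant replicates 1 and 2 and subordinate replicate 1.

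Some markers of other cells were high in the same libraries as these genes, and other marker lists were not. Transcripts of 9 of 11 lymphocyte markers sought were in the table, and their summed normalised reads were 934, 945 and 698 in dominant brains, against 1038, 666 and 685 in subordinate brains. Dominant replicates 1 and 2 and subordinate replicate 1 were thus also high in that sum. Within the list cd8a, rag1, zap70 and lck did not have those 3 libraries highest. For cd8a the values were 199, 196 and 164 in dominant brains, against 229, 186 and 215 in subordinate brains. For rag1 they were 45.6, 64.9 and 55.5 in dominant brains, against 62.8, 61.3 and 58.3 in subordinate brains. The B-cell factor pax5, which some hindbrain neurons also express, had 210.5, 110.1 and 75.4 in dominant brains, against 137.5, 56.1 and 49.3 in subordinate brains. The actin bundler lcp1 of leukocytes and microglia had 835.7, 986.9 and 724.2 in dominant brains, against 1125, 649 and 579 in subordinate brains. Dominant replicates 1 and 2 and subordinate replicate 1 were the highest libraries in both pax5 and lcp1, though not in the same order. The microglial receptor gene p2ry12 had 429, 551 and 376 in dominant brains, against 460, 355 and 285 in subordinate brains, and the myeloid factor spi1a had 125, 136 and 104 in dominant brains, against 147, 124 and 70.4 in subordinate brains, with the same 3 libraries highest. The summed microglia and macrophage markers, 6 of 11 present and mostly reads of apoeb, had another order, at 18045.7, 26521.5 and 22273.5 in dominant brains, against 18510.2, 24947.9 and 18300.6 in subordinate brains. In that list apoc1 had 1199, 1889 and 1435 in dominant brains, against 1239, 2242 and 1511 in subordinate brains. For aif1l the values were 2440, 2752 and 2548 in dominant brains, against 2556, 2754 and 2785 in subordinate brains. Thus apoeb, apoc1 and aif1l did not have those 3 libraries highest. Markers of radial glia, the progenitor cells of the adult fish brain, were present for 9 of 13 sought, with sums of 125671, 150461 and 135829 in dominant brains, against 107136, 128641 and 111750 in subordinate brains. Of these 6 had a positive difference, 3 an unadjusted limma p under 0.05 and 0 an adjusted p under 0.05. By the sum subordinate replicate 1 was the lowest library, and by the median log2 deviation subordinate replicate 3 was, at -0.23 beside -0.18 in subordinate replicate 1. Oligodendrocyte markers, 8 of 9 present, all had a positive difference, with sums of 172159, 180150 and 161242 in dominant brains, against 194064, 147845 and 107075 in subordinate brains. Dominant replicates 1 and 2 and subordinate replicate 1 were the highest libraries in that sum as well. Within the list mbpa and cldnk had those 3 libraries highest, while mpz, plp1b, mag, plp1a, olig2 and sox10 did not. Anterior pituitary markers, 8 of 8 present, all had a negative difference (median -0.59), with sums of 10361.9, 11979.9 and 15002.1 in dominant brains, against 13856.4, 14468.6 and 29531.8 in subordinate brains. Subordinate replicate 3 was the lowest library in the oligodendrocyte sum and the highest in the pituitary sum. It was also the highest in the summed erythroid markers, which stood at 3589, 4219 and 4786 in dominant brains, against 2957, 3538 and 6247 in subordinate brains. Hox genes of the hindbrain and spinal cord, of which 11 were tested, had a mean log2 level of 6.63, 7.14 and 6.32 in dominant brains, against 5.39, 1.69 and 2.67 in subordinate brains. Every dominant library was above every subordinate one, and subordinate replicates 2 and 3 were far below the rest. Hox level thus ran with status, and a fit holding both cannot cleanly separate them. With this hox level as a covariate 34 of the 106 genes had a positive status difference and their median was -0.09, while over all genes in the same fit 49.2% were positive and the median was -0.0042. The difference of rfc4 in that fit was 0.70 (limma adjusted p = 0.638). What part these markers have in the cell division transcripts was not tested.

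Other genes of replication and mitosis, were taken from a list that follows the pathway and not the name pattern. Of 156 listed 108 were tested, and 66, or 61.1%, had a positive difference, beside 52.8% of the 106 genes and 48.8% of all genes tested. The median was 0.09, no test was made of this contrast, and 0 passed the limma adjusted p of 0.05. In this list too single libraries differed within a status. Genes above their own mean of the 6 libraries numbered 77, 72 and 33 in dominant brains, against 83, 25 and 43 in subordinate brains. At an unadjusted limma p under 0.05 there were 2 of the 108. These were the condensin gene ncaph, with 46.7, 40.5 and 40.8 normalised reads in dominant brains, against 31.9, 21.8 and 23.1 in subordinate brains (0.73, 95% interval 0.16 to 1.30), and the securin gene pttg1, with 24.9, 23.5 and 17.8 in dominant brains, against 15.5, 8.31 and 8.05 in subordinate brains (1.03, 0.15 to 1.92). At that p, 2 of 108 is below the 5.17% of all genes. In both ncaph and pttg1 every dominant library was above every subordinate one. Groups did not overlap in 4 of the 108 genes with dominant above and in 2 with dominant below. Over all genes tested these shares were 5.46% and 5.33%, so the counts are not raised. The spindle gene aspm and the checkpoint gene topbp1 were next on the dominant side, at 0.74 and 0.16. The ubiquitin-conjugating enzyme ube2s at -0.17, the kinase inhibitor cdkn2d at -0.36, the condensin gene ncapd2 at -0.14 and the histone mRNA-binding gene slbp at -0.14 were nearest to the threshold on the other side. Groups were also apart in aspm and topbp1, with dominant above, and in ube2s and ncapd2, with dominant below.

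None of the 106 genes was in the deposited pituitary table, which lists 714 genes that all have an authors' p-value under 0.05. The values of these genes in the pituitary were therefore not analysed here. Of the further pathway genes 3 were in that table, all higher in dominant pituitaries, and the choice of the table by p-value fixes that they differ. The share of all 714 genes that were higher in dominant pituitaries is not given here, so their shared direction has no background. The separase gene espl1 had 114, 146 and 273 normalised reads in dominant pituitaries, against 101, 72.4 and 92.3 in subordinate pituitaries, and the authors' deposited table gives it a log2 fold change of 1.003 (p = 0.00754). The kinetochore gene nuf2 had 506, 395 and 521 in dominant pituitaries, against 234, 428 and 213 in subordinate pituitaries (0.70 in the authors' deposited table, p = 0.0197). The checkpoint gene mad1l1 had 546, 521 and 410.2 in dominant pituitaries, against 374, 427 and 317 in subordinate pituitaries (0.41 in the authors' deposited table, p = 0.0488). The groups of espl1 did not overlap, those of nuf2 and mad1l1 did.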

How the data were processed

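RNA sequencing libraries of 3 dominant and 3 subordinate male brains, and of as many pituitaries, were grouped by the hierarchical status and tissue in the labels. The submitters' processing notes name STAR 2.201, HTSeq, DESeq, DESeq2, Trim Galore and FastQC 0.11.4, without their order. Build, annotation and strand setting: not given in the sources used here. Near-identical copies of a gene may share reads. The authors deposited signal values named normalised read counts. In each brain library 100% of values were whole multiples of 1 step (tolerance 0.01 reads), which gave whole reads and size factors of 0.956 to 1.10. The log2 fold change and unadjusted p-value of each gene are also as the authors deposited them. There were 251 blank lines left out, and 0 columns of values were not used.

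limma 3.58.1 (R 4.3.3) was run on log2(value + 1), a scale that understates changes of low genes, with a trended eBayes, two-sided, for all genes averaging 10 or more. The limma script was tested on simulated data. Alternatives were edgeR 4.0.16 and DESeq2 1.42.0 on recovered reads, robust limma, quantile or TMM rescaling, pseudocounts of 0.5 and 5, a minimum mean of 50 or no filter, leaving out single replicates, a replicate block and a hox covariate. Genes and lists were chosen with earlier results of these data known. Named genes were core replication genes, up to 8 per direction by smallest p, the 5 with most reads, the 3 nearest the mean threshold, and up to 4 further pathway genes per direction. LOC identifiers were named from RefSeq assembly O_niloticus_UMD_NMBU, which matched 17128 of 17130 and named 5834. Plots were made with matplotlib 3.10.9.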

Additional observations from a re-analysis of the deposited data

How the results depend on the processing

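Genes called over the whole brain numbered 6 with limma, 1 with the replicate block, 1 to 15 with each replicate left out, 88 with DESeq2 and 0 with the hox covariate (1395 at an unadjusted p under 0.05). Of the 106 genes 0 were called in every setting but DESeq2, which called 1, rfc4 (log2 difference 0.89). Those at an unadjusted p under 0.05 were 2 in the main limma test, 6 with the replicate block (6.20% of all genes), 1 to 9 with a replicate left out and 1 with DESeq2. The 9 came without subordinate replicate 1, where 8.77% of all genes were under 0.05. The median difference ran from -0.0227 to 0.0784 with a replicate left out, the highest without dominant replicate 3, and was -0.0894 with the hox covariate. Positive differences numbered 49 to 61 with a replicate left out and 34 with the hox covariate. With a mean of at least 50 there were 39 positive of 82 and a median of -0.0152. Over 822 values of 49 named genes under alternatives 50 changed sign, none of them called, 24 with the hox covariate, whose level ran with status. Of the 49 named genes 30 changed sign in at least 1 alternative. The cause of these changes was not tested. Whether a shared replicate number marks a shared tank is not stated in the labels. Deviations of samples with the same number correlated at 0.0916, -0.0303 and -0.0209 over genes, and not each sample correlated best with its own number. With so few samples these values cannot tell whether same-number samples shared a tank. The replicate block result is therefore given as a count only. Genes with few reads are measured least precisely, and the 95% intervals of cdc6, ccnb1 and cdc45 each span more than a log2 unit.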

Other observations

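Genes that carry only a LOC identifier in the table but whose RefSeq symbol fits the same name pattern numbered 22, and all were tested. Of these 9 had a positive difference, the median was -0.02, 1 had an unadjusted limma p under 0.05 and 0 had an adjusted p under 0.05. The gene with the unadjusted p under 0.05 was cdk17 (LOC100690600), a kinase of the PCTAIRE group, with 403, 407 and 493 normalised reads in dominant brains, against 849, 801 and 482 in subordinate brains. Subordinate replicate 3 lay with the dominant libraries. The Aurora kinase aurkb (LOC100706117), which acts at the centromere, had 20.7, 29.2 and 9.42 in dominant brains, against 23.7, 10.4 and 10.1 in subordinate brains. As in ccnb1, dominant replicates 1 and 2 and subordinate replicate 1 were the higher libraries. The Aurora kinase aurka (LOC100694808), which acts at spindle poles, had 23.8, 31.0 and 19.9 in dominant brains, against 17.3, 28.1 and 18.1 in subordinate brains, another order. The G1 cyclin ccne2 (LOC100692568) had 17.6, 17.9 and 10.5 in dominant brains, against 24.6, 10.4 and 10.1 in subordinate brains. These 4 genes were chosen after their values were seen.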
